A study of Mus musculus with 8 samples.

Results

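Heterozygous RNF17 immunoprecipitation (IP) over its own lysate is the comparison described here: the RNA recovered with an antibody against RNF17 set against total RNA of testes of the same genotype. No label ties an IP to 1 of the testis libraries. Its 4 libraries, of 8 in the series, were chosen by their labels: 2 IP libraries and 2 testis libraries whose columns stand together in 1 deposited table of gene counts and in 2 tables of transposon counts. All 4 come from C57BL/6 mice at 6 weeks of age that are heterozygous for RNF17. The IPs used the antibody RNF17 1774 on lysate of dissected testes, and the testis libraries are total RNA taken with no antibody, which the tables name lysate and which serve here as the input. The other 4 libraries are the same pair of kinds from mice labelled homozygous RNF17, also C57BL/6 at 6 weeks. They used the same antibody and are read here for its background, against lysates that differed in RNA content from the heterozygous ones. The labels name no allele and do not say whether RNF17 protein is left in the homozygous libraries. No IP with another antibody or with beads alone was analysed here. Neither the animals behind each library nor the number of testes per IP is given, so the p-values describe the spread of the libraries sequenced, which could be technical alone.

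RNF17 belongs to the Tudor family of the germ line, whose domains are modules that bind methylated arginines, including those on PIWI proteins. PIWI proteins carry piRNAs, small RNAs that guide the silencing of transposons in the male germ line. In spermatocytes most piRNAs are cut from long single-stranded precursor transcripts of dedicated loci, a process that takes place in the cytoplasmic granules where Tudor proteins and PIWI proteins gather.

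The gene table holds 19276 entries, of which 19076 are gene symbols and 200 are strands of piRNA precursor loci, 100 sense and 100 antisense. Gene reads numbered 6140624 and 19838802 in the testis libraries and 9222913 and 5858753 in the IPs, in the order of replicates 1 and 2 as everywhere below. Levels are in CPM, the usual depth-scaled read count, after TMM scaling. A ratio of IP to testis is relative to the bulk of RNA in the same library, and in whole testis fewer cells of a type and less RNA per cell cannot be told apart. The IPs were close to each other, with r = 0.979 across 13562 entries on the log2 scale and an SD of 0.471 for the log2 difference. The testis libraries were not, with r = 0.869 and an SD of 1.31. Testis replicate 1 was the farther from the IPs, with r = 0.8434 and 0.8457, against 0.9115 and 0.9155 for testis replicate 2. Testis replicate 1 held 19.3 uniquely mapped transposon reads per 100 gene reads, against 6.30 in testis replicate 2 and 14.6 and 11.8 in the IPs. Among the homozygous libraries, testis replicate 1 likewise held 18.8, against 8.01 in testis replicate 2 and 6.89 and 6.97 in the IPs. The log2 level of heterozygous testis replicate 1 relative to replicate 2 went up with the genomic span of the gene. Spearman's rho was 0.54 across 13300 genes, a description, since all points share the libraries. Where leaving out 1 library turned a named log2 ratio or moved it by more than 1.5 times, the value without it is given.

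At a Benjamini-Hochberg adjusted p under 0.05, the quasi-likelihood test of edgeR called 0 of 13562 entries, and its smallest adjusted p was 0.206. At an unadjusted p under 0.05, edgeR had 1378 entries higher in the IP (10.2%) and 1082 lower (7.98%). DESeq2 called 245 entries higher and 356 lower in the whole table, of which 244 (1.8%) and 349 (2.57%) were among those edgeR tested. Each heterozygous gene or piRNA call named below is therefore a DESeq2 call that edgeR did not make. In 29.3% of entries both IPs lay above both testis libraries, in 23.7% both lay below, and 48% had a log2 ratio above 0.

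The piRNA precursors, the transcripts from which piRNAs are cut, were mostly higher in the IP than in its lysate. All 100 sense loci passed the filter on low counts, and 84 of them had a log2 ratio above 0. Their median was 0.86, against -0.04 over all entries. DESeq2 called 16 of the 100 higher and 0 lower, and edgeR had 42 higher and 3 lower at an unadjusted p under 0.05 with 0 calls after adjustment. Both IPs lay above both testis libraries at 68 loci and below at 6. The summed level of the sense loci was 22637 and 17537 CPM in testis and 36307 and 40324 CPM in the IPs, so the IPs were the higher of the 4 libraries. The median ratio was 0.95 without testis replicate 1 and 0.86 without testis replicate 2. It was 0.97 and 0.71 without IP replicate 1 and 2. Between 78 and 86 loci lay above 0 when any 1 of the 4 libraries was left out. The DESeq2 calls were less steady: 59 loci were called higher without testis replicate 1 and 55 without testis replicate 2, where the spread comes from the IPs alone, and 0 without IP replicate 1 and 0 without IP replicate 2.

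**Figure D1:**
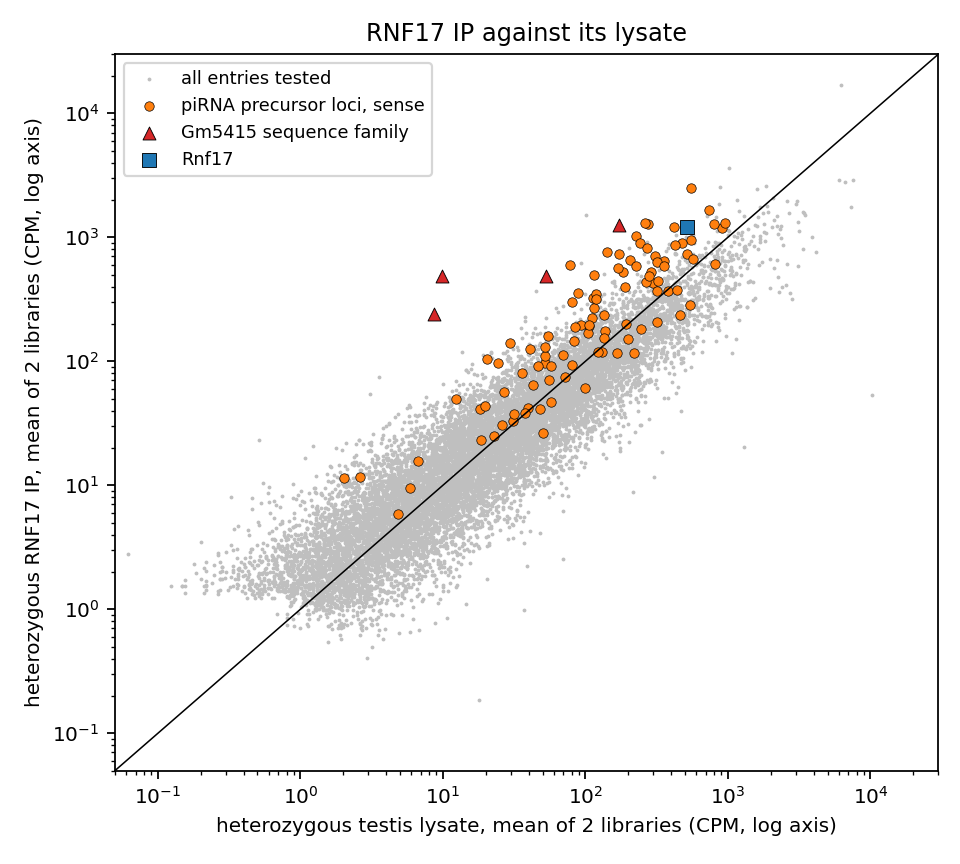
Mean level in the 2 heterozygous testis lysate libraries (x axis) against the mean in the 2 heterozygous RNF17 IPs (y axis), both in CPM on log axes; each point is 1 tested entry and the line marks equal levels. Most of the 100 sense piRNA precursor loci lie above the line, with Rnf17, and the Gm5415 sequence family lies farther above it; 6 entries with a mean under 0.05 CPM fall outside the axes.

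The locus 10-qB5.1-221.1, named by the authors for its chromosome and band, had the largest ratio of the called loci. Its level was 83.5 and 72.2 CPM in testis and 588 and 606 CPM in the IPs, a log2 ratio of 2.94 (SE 0.34, DESeq2 adjusted p = 2.97e-05). The most abundant locus over the 4 libraries, 10-qB4-6488.1, stood at 553 and 541 CPM in testis and at 2486 and 2474 CPM in the IPs (log2 2.18, SE 0.31, DESeq2 adjusted p = 0.00431). At both loci the groups were far apart and the replicates of each group nearly equal.

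Other called loci had lower ratios. The locus 17-qE1.1-7037.1 went from 175 and 111 CPM to 756 and 753 CPM (log2 2.40, SE 0.38). The locus 11-qE1-9443.1 had 303 and 223 CPM in testis and 1362 and 1250 CPM in the IPs (log2 2.31, SE 0.35), and 7-qF3-246.1 had 29.2 and 30.1 against 131 and 149 CPM (log2 2.24, SE 0.36). None of these loci overlapped between the groups, and DESeq2 called each. A lower locus, 9-qF4-150.1, was also called, with 13.0 and 27.9 CPM in testis and 97.3 and 112 CPM in the IPs (log2 2.35, SE 0.51).

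The 16 called loci spanned log2 ratios of 1.74 to 2.94 and mean testis levels of 12.4 to 546.6 CPM. Across the 100 sense loci the ratio had little relation to the testis level (Spearman's rho -0.157, a description over loci that share libraries). The direction varied between chromosomes. On chromosome 10, 9 of 11 loci lay above 0 with a median of 1.16, and on chromosome 5 all 6 did with a median of 1.17. On chromosome 13 only 2 of 7 lay above 0, with a median of -0.27. The 7 loci named for a gene had a median of 0.07.

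A few precursors had a lower level in the IP, without a call by either tool. The locus 13-qB1-1517.1 had 574 and 515 CPM in testis and 288 and 278 CPM in the IPs (log2 -0.94, SE 0.31, edgeR unadjusted p = 0.0265). The locus 13-qA3.1-355.1 had 51.1 and 49.8 against 26.6 and 26.0 CPM (log2 -0.94), and 17-qA3.3-352.1 had 231 and 209.6 against 109.9 and 122.5 CPM (log2 -0.92). In these 3 the IPs lay below both testis libraries. The lowest ratio of all sense loci, -0.98 at 3-qA2-617.1, rested on testis replicate 1, with 782 and 144 CPM in testis and 234 and 236 CPM in the IPs, and was 0.62 without it.

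**Figure D2:**
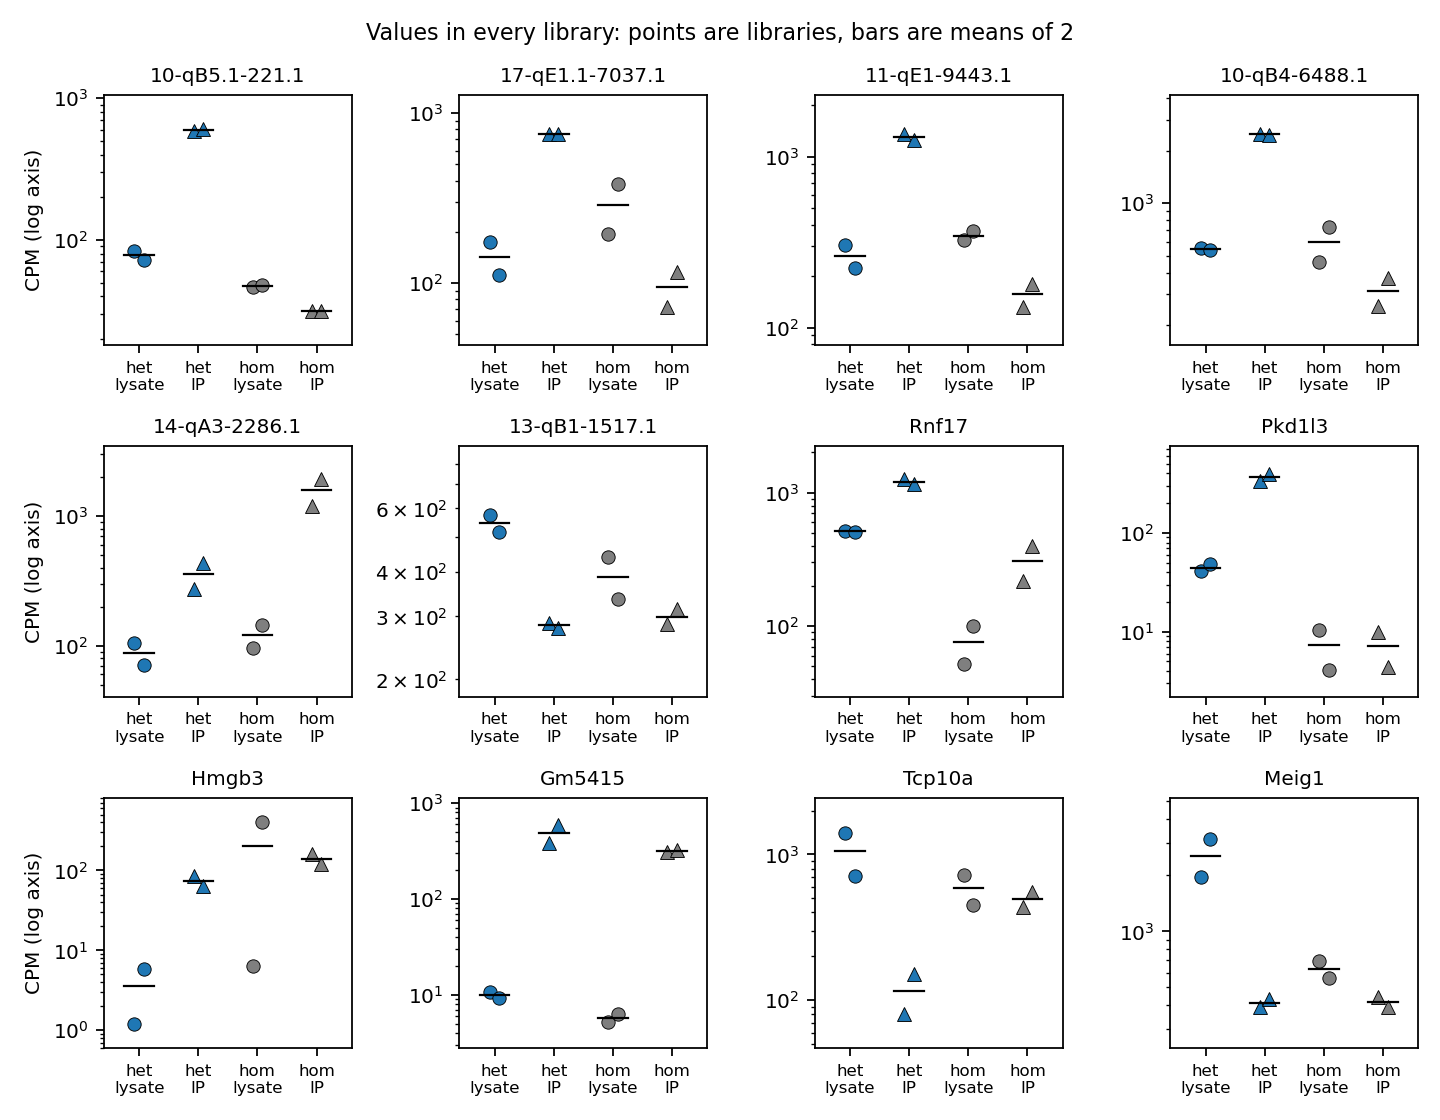
Level in each library (CPM, log axis) of 6 piRNA precursor loci, named without prefix, and 6 genes, in heterozygous (het, blue) and homozygous (hom, grey) testis lysate (circles) and RNF17 IP (triangles); points are libraries and bars the mean of 2. The first 4 loci and Pkd1l3 have both IPs above both lysates in het and not in hom, Gm5415, Rnf17 and 14-qA3-2286.1 in both genotypes; Tcp10a and Meig1 have both het IPs below both het lysates, and the hom lysates of Hmgb3 lie far apart.

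The background of the antibody was read in the homozygous libraries, whose CPM were scaled among themselves. There, 32 of the 100 sense loci had a ratio above 0 (49.3% of all entries did), the median was -0.39, and edgeR called 4 higher and 4 lower (background 1.84% and 1.45% of 13334 entries). The locus 10-qB5.1-221.1 had 46.9 and 48.3 CPM in homozygous testis and 31.6 and 31.4 CPM in homozygous IP. The locus 10-qB4-6488.1 had 461 and 732 against 257 and 373 CPM. Both were thus higher in the IP than in testis in heterozygotes and lower in homozygotes. The lysates of the genotypes were not alike, as spermatid markers described below show. Tnp1 had 42.4 and 18.1 CPM in homozygous testis against 1209 and 7143 CPM in heterozygous testis. Akap4 had 71.8 and 70.4 against 892 and 3042 CPM, and Odf2 had 1888 and 2749 against 4227 and 10370 CPM. A difference in ratio between the genotypes thus covers lysate and IP together, and the part of each was not tested.

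The difference between the genotypes was tested as an interaction, the log2 ratio in heterozygotes minus that in homozygotes. EdgeR called 0 of 14180 entries (smallest adjusted p 0.214), with 511 higher (3.6%) and 862 lower (6.08%) at an unadjusted p under 0.05. DESeq2 called 29 entries higher in heterozygotes (0.205%), and 23 of the 29 were sense piRNA loci. It called 216 lower (1.52%), of which 1 was a sense piRNA locus, 14-qA3-284.1, a name chosen after its values were seen. The median interaction over the 100 sense loci was 1.16, against 0.02 over all entries of the heterozygous comparison, and 83 lay above 0. This median was 0.77 without homozygous testis replicate 2, 1.61 without homozygous testis replicate 1, and between 1.05 and 1.39 without any 1 of the other 6 libraries. All 23 called loci had a ratio above 0 in heterozygotes and below 0 in homozygotes. The largest was 17-qE1.1-7037.1, with an interaction of 4.01 (DESeq2 adjusted p = 4.51e-06).

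Not every precursor called higher differed in this way. Of the 68 loci with both heterozygous IPs above both testis libraries, 33 had both homozygous IPs below both homozygous testis libraries and 10 had both above, where over all homozygous entries 28.3% had both below and 28.5% both above. Of the 16 called loci, 6 had a homozygous ratio above 0. The locus 14-qA3-2286.1 had 105 and 71.4 CPM in heterozygous testis and 274 and 435 CPM in the IPs (log2 2.01). In homozygotes it had 96.4 and 144 against 1207 and 1948 CPM (log2 3.71, edgeR adjusted p = 0.0087). The locus 7-qD1-654.1 had log2 ratios of 2.08 and 2.09 in the 2 genotypes. Across the 100 loci the ratios of the 2 genotypes had a Spearman's rho of 0.009, which is a description only.

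**Figure D3:**
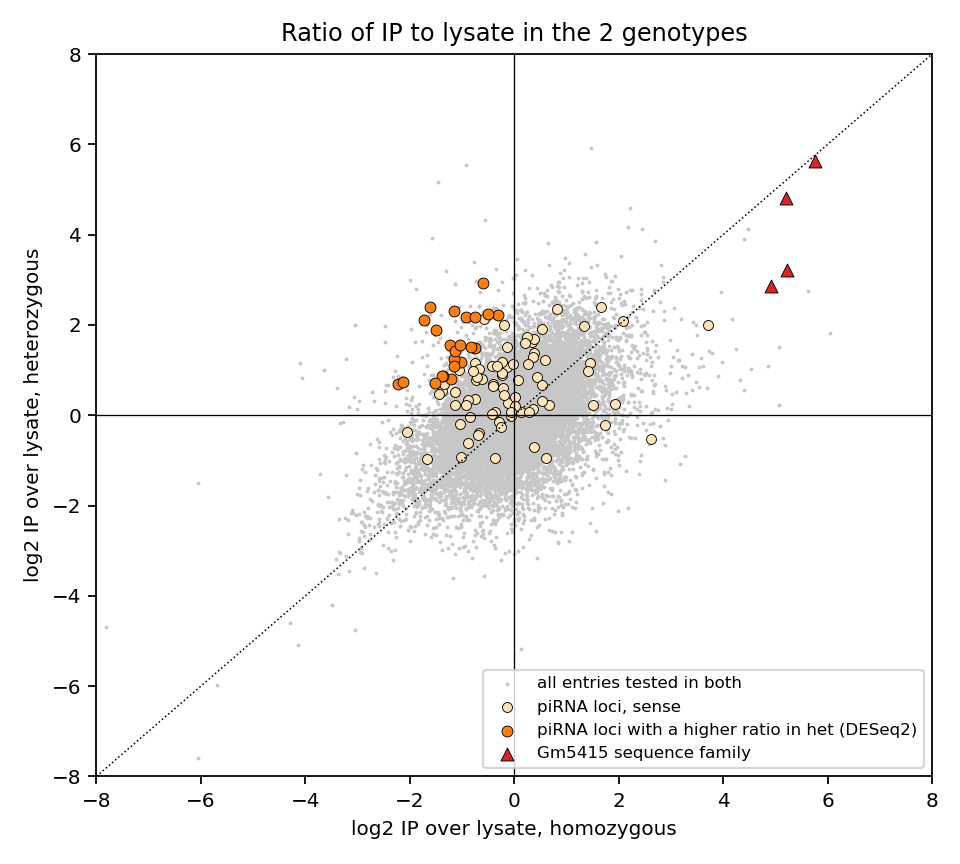
Log2 ratio of IP to lysate in homozygous (x axis) and heterozygous mice (y axis); grey points are all entries tested in both, pale and orange circles the sense piRNA precursor loci, triangles the Gm5415 sequence family, and the dotted line equal ratios. The 23 orange loci, called by the DESeq2 interaction, all lie above 0 on the y axis and below 0 on the x axis, while the 4 family members are above 2 on both.

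Antisense reads of these loci were few. They made up 1.60% and 1.79% of the piRNA locus reads in testis and 1.43% and 1.30% in the IPs (exact 95% binomial intervals 1.53 to 1.66%, 1.75 to 1.84%, 1.39 to 1.47% and 1.26 to 1.34%, which cover counting error only). Both IPs thus had a smaller antisense share than both testis libraries. The same held in homozygotes, with 0.962% and 1.04% in testis and 0.851% and 0.721% in the IPs. Of the 100 antisense entries, 60 passed the filter on low counts in heterozygotes, 51 of these lay above 0, and the median was 0.84. An entry can pass this filter through the IPs alone, which favours ratios above 0 where counts are low. The antisense entry 14-qA3-2286.1, for example, had 0.342 and 0.186 CPM in testis and 1.40 and 1.39 CPM in the IPs. DESeq2 called 1 of the 60 entries, 9-qA1-178.1, with 3.07 and 3.11 CPM in testis and 47.3 and 61.8 CPM in the IPs (log2 4.13, SE 0.45). It was as high in homozygotes, with 0.841 and 3.36 against 43.6 and 58.1 CPM. The antisense entries as a set were not: 6 of the 46 tested in both genotypes lay above 0 in homozygotes, with a median of -1.32. Their median interaction was 1.81, against 0.02 over all entries, and 57 of 59 lay above 0, with 0 called by edgeR or DESeq2. The kit's strand handling is not stated in the labels, so a low antisense count and a stray sense read cannot be told apart.

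Rnf17 RNA itself, the message of the precipitated protein, was higher in the IPs without a call. It had 519.8 and 505.6 CPM in testis and 1262 and 1156 CPM in the IPs, a log2 ratio of 1.24 (SE 0.30, edgeR adjusted p = 0.214, DESeq2 adjusted p = 0.172). The groups did not overlap. In homozygotes it had 52.0 and 99.5 CPM in testis, which follows the labels, and 218 and 402 CPM in the IPs, a log2 ratio of 2.03 (edgeR adjusted p = 0.0396). The ratio was thus not lower in homozygotes, and the interaction was -0.82 (SE 0.62, DESeq2 adjusted p = 0.622).

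Messages of the piRNA pathway, the proteins that make and use piRNAs, were spread on both sides. Of 30 genes, 29 were tested, 17 lay above 0, the median was 0.24, and DESeq2 called 1 higher and 0 lower. The called gene was Gpat2, an acyltransferase homologue that works with MILI in piRNA production. It had 13.5 and 9.50 CPM in testis and 66.7 and 48.9 CPM in the IPs (log2 2.33, SE 0.44, DESeq2 adjusted p = 0.00571), and the 2 groups were well apart. Its homozygous ratio was 0.13. Piwil1, the PIWI protein MIWI that binds pachytene piRNAs, had 142.6 and 234 against 386 and 406 CPM, with a log2 ratio of 1.07 (0.67 without testis replicate 1) that neither tool called; it was picked after its values were seen. Ddx4, the RNA helicase of germ granules and the most abundant of the list, had 1204 and 1327 against 1192 and 1010 CPM. Its log2 ratio was -0.20 (0.17 when scaled to total reads). This ratio was -0.35 and -0.12 without testis replicate 1 and 2, and -0.31 and -0.11 without IP replicate 1 and 2. Among Tudor domain proteins outside the pathway, 12 of 19 lay above 0 with a median of 0.21. DESeq2 called only Kdm4a, a histone demethylase, with 13.7 and 10.4 against 52.1 and 45.6 CPM (log2 2.02, SE 0.41).

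Among gene symbols with a mean of at least 3 on the log2 CPM scale, the 2 largest called ratios were those of Gm5415 and Gm9839, which share a sequence with other RNAs of the table. Gm5415 had 10.6 and 9.25 CPM in testis and 382 and 598 CPM in the IPs (log2 5.63, SE 0.46, DESeq2 adjusted p = 1.54e-19). Gm9839 had 11.4 and 5.90 against 161 and 322 CPM (log2 4.81, SE 0.62), and 4930444G20Rik had 44.9 and 61.0 against 369 and 615 CPM (log2 3.21, SE 0.44). AF366264, which the naming rule did not choose and which was picked after its values were seen, had 69.4 and 272 against 765 and 1725 CPM (log2 2.86, SE 0.80). DESeq2 called all 4. A search of Gm5415 against the GENCODE M21 transcripts found 14 genes, itself included, with at least 1000 aligned bases at 80% identity or more, and these 4 are the ones in the table. Gm5415 was 98.5% identical to Gm9839, 90.9% to 4930444G20Rik and 88.1% to AF366264 over the bases aligned.

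An aligned stretch of 120 bases on the transcribed strand is shown for the 4 genes because related copies can share reads. Of the 4, Gm5415 and Gm9839 are the near-identical ones, and how far reads were shared was not tested. The sequences are from GRCm38, a later build than the one the counts were made on, at chr1:32546708-32546827 for Gm5415, chr1:32520880-32520999 for Gm9839, chr10:22067936-22068055 for 4930444G20Rik and chr8:13837946-13838065 for AF366264, all on the minus strand. The stretch is exonic and coding in Gm5415, 4930444G20Rik and AF366264, and Gm9839 is annotated with no coding region. Capitals mark the bases that differ from Gm5415.
Gm5415: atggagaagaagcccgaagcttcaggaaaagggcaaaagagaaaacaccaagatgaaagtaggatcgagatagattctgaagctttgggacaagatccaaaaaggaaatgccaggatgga
Gm9839: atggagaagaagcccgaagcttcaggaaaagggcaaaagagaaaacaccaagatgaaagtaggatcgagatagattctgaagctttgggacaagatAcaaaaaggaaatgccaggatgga
4930444G20Rik: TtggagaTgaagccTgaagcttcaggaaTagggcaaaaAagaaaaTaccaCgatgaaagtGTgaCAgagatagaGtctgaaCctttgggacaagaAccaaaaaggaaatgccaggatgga
AF366264: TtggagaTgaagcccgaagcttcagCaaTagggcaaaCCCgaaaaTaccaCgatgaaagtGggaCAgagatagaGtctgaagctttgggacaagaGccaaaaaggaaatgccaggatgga
Gm9839 differs from Gm5415 at 1 base of the 120, and 4930444G20Rik and AF366264 at 14 each. Counts of the single members are uncertain for that reason, since the rule by which the authors counted reads that fit several copies is not stated by any source used here. The family was also high in the homozygous IP: log2 ratios there were 5.76 for Gm5415, 5.20 for Gm9839, 5.22 for 4930444G20Rik and 4.92 for AF366264, and edgeR called each (largest adjusted p 5.37e-04). The interactions of Gm5415 and Gm9839 were -0.16 and -0.38. For 4930444G20Rik and AF366264 the homozygous ratio was the larger. The interaction of 4930444G20Rik was -2.04 and was not called (DESeq2 adjusted p = 0.0598), with 12.8 and 7.40 CPM in homozygous testis.

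Other genes were high in the IPs of both genotypes. Kcnu1, a sperm potassium channel, had 51.2 and 150.0 CPM in testis and 1101 and 1906 CPM in the IPs (log2 3.90, SE 0.68, DESeq2 adjusted p = 7.21e-06), with a homozygous ratio of 4.40. Nasp, a histone chaperone picked after its values were seen, was the most abundant RNA of the heterozygous IPs at 13548 and 20463 CPM, against 4543 and 7829 CPM in testis. Its ratio of 1.46 missed the threshold (DESeq2 adjusted p = 0.138), and in homozygotes it was 4.25.

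Pkd1l3, a polycystin family channel subunit, was high in the heterozygous IPs and not in the homozygous ones. It had 41.2 and 48.2 CPM in testis and 338 and 399 CPM in the IPs (log2 3.04, SE 0.36). The gene had 10.5 and 4.14 against 9.84 and 4.44 CPM in homozygotes, and the interaction was 3.01 (DESeq2 adjusted p = 0.00971, edgeR 0.307). It was 1 of 6 entries outside the piRNA loci that the DESeq2 interaction called higher. The others, named because they are few, were Ddx17, Gzf1, Leng8, Maged1 and Serpina5, with interactions of 1.76, 1.99, 1.99, 2.46 and 2.39; the heterozygous ratio of Serpina5 was 1.42, and 0.68 without IP replicate 1.

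Hmgb3, a chromatin protein, had 1.20 and 5.90 CPM in testis and 86.2 and 63.2 CPM in the IPs (log2 4.33, SE 0.82, DESeq2 adjusted p = 6.19e-06). Its homozygous testis libraries were at 6.30 and 403 CPM, so the interaction of 4.80 was not called (DESeq2 adjusted p = 0.272). Gstm2, a glutathione transferase, had 18.4 and 8.70 against 105 and 134 CPM (log2 3.15), and Rapgef3, an exchange factor activated by cyclic AMP, had 2.73 and 2.79 against 22.5 and 21.0 CPM (log2 2.97). Prdx5, a peroxiredoxin, had 2.22 and 4.29 against 28.0 and 24.2 CPM (log2 2.97). In all of these the testis levels were low, and the IPs did not overlap them. The homozygous ratios were 0.87 for Gstm2, 1.87 for Rapgef3 and 1.86 for Prdx5, and edgeR called no interaction for them; DESeq2 did not call that of Gstm2 and gave no adjusted p for the other two.

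Messages listed as replication-dependent histones, a class that mostly lacks a poly(A) tail, had a high median. The list includes testis variants such as Hist1h2aa. Of 32 genes, 18 were tested, 13 lay above 0 and the median was 1.40, with 3 called higher by DESeq2 (1.8% of all entries were). Histone genes of low count can pass the filter through the IPs alone, which favours ratios above 0. Hist1h2bb, for example, had 1.20 and 1.86 CPM in testis and 17.1 and 7.71 CPM in the IPs. Hist1h2aa had 3.25 and 8.32 CPM in testis and 47.9 and 40.7 CPM in the IPs (log2 2.91, SE 0.59). Hist1h2bb and Hist1h1a had log2 ratios of 2.98 and 3.04 from testis levels under 5 CPM, the latter 5.92 without testis replicate 2. Only 13 passed the filter in homozygotes, with a median of -0.21. The median in heterozygotes ranged from 0.51 to 2.90 when 1 library was left out, and near-identical histone genes can share reads.

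Cytosolic ribosomal protein messages had no common direction. Of 83 genes, 61 were tested, 29 lay above 0, and DESeq2 called 4 higher and 6 lower (1.8% and 2.57% of all entries). Rps24 had 4.27 and 5.34 against 25.7 and 49.5 CPM (log2 2.95), and Rps6 had 12.5 and 12.4 against 1.59 and 2.62 CPM (log2 -2.58). These genes have many processed copies in the genome, so their counts are uncertain. Rpl13a, picked after its values were seen, shows how 1 library can decide a ratio: it had 20520 CPM in testis replicate 1 and 22.05, 61.1 and 45.0 CPM in the other 3 libraries.

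**Figure D4:**
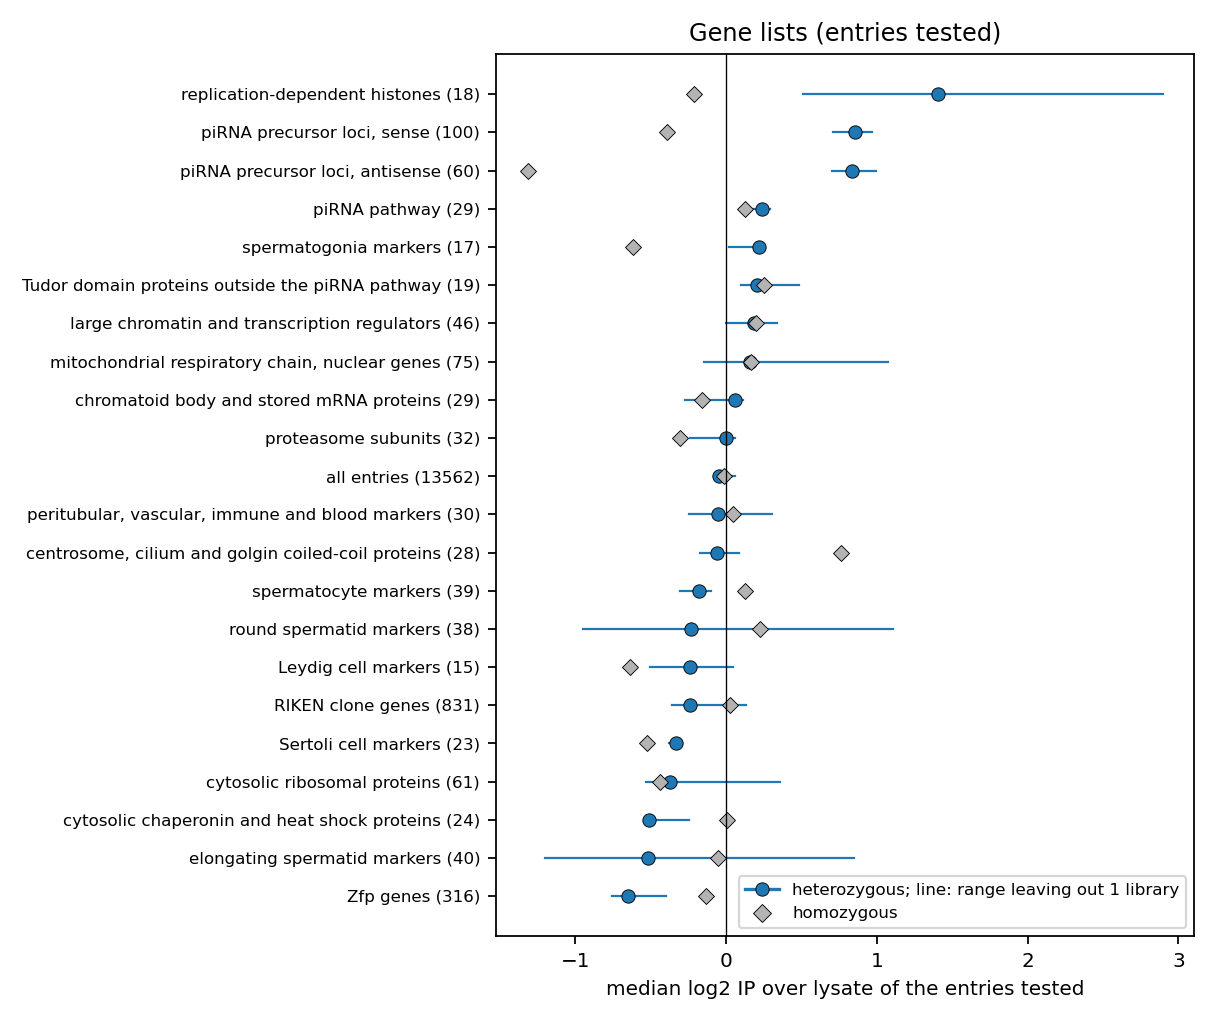
Median log2 ratio of IP to lysate for each gene list with at least 10 tested members, with the number tested in brackets; circles are heterozygous mice, lines the range when 1 of the 4 libraries is left out, and diamonds homozygous mice. Both sets of piRNA precursor loci keep a median above 0.7 in every heterozygous fit and have a median below 0 in homozygous mice, while the lines of the spermatid markers cross 0.

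Among the RNAs called lower in the IP, the values of 3 show the size of the difference. Meig1, needed for sperm tail assembly, had 1957 and 3136 CPM in testis and 392 and 431 CPM in the IPs (log2 -2.63, SE 0.39, DESeq2 adjusted p = 2.91e-04). Tcp10a, of the t-complex region, had 1414 and 710.0 against 81.0 and 150.4 CPM (log2 -3.20, SE 0.55, DESeq2 adjusted p = 3.12e-05). Fam162a had 159 and 243 against 22.6 and 22.3 CPM (log2 -3.16, SE 0.41, DESeq2 adjusted p = 6.58e-06). In all 3 the IPs lay far below the testis levels.

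These 3 had ratios nearer 0 in homozygotes. Their ratios there were -0.59 for Meig1, -0.25 for Tcp10a and -0.81 for Fam162a, and the DESeq2 interaction called all 3 (adjusted p = 0.0211, 0.00391 and 0.00848), whereas edgeR did not. Tcp10a has the near copies Tcp10b and Tcp10c, so its counts are uncertain. The RNA 1700019M22Rik had 153 and 790 against 33.5 and 46.2 CPM (log2 -3.57, -1.94 without testis replicate 2) and was also called by the DESeq2 interaction (adjusted p = 0.0404).

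Pabpc1, the cytoplasmic poly(A)-binding protein, had 2613 and 4077 CPM in testis and 754 and 847 CPM in the IPs (log2 -2.06, SE 0.37, DESeq2 adjusted p = 0.00604). Upf1, the helicase of nonsense-mediated decay, went the other way, with 26.0 and 79.2 against 267 and 178 CPM (log2 2.08, SE 0.63). They were the only members of 29 tested chromatoid body and stored mRNA proteins that DESeq2 called, and the median of that list was 0.06 (-0.27 without testis replicate 2).

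Proteasome subunits had 4 of 32 called lower and 0 higher by DESeq2 (2.57% and 1.8% of all entries), with a median of 0.00. Psma4 had 171 and 206 against 28.5 and 43.1 CPM (log2 -2.40), Psmc1 had 313 and 329 against 72.3 and 102 CPM (log2 -1.88), and Psmd6 had 475 and 251 against 90.8 and 86.3 CPM (log2 -2.03). The groups were apart in each. Psma4 and Psmc1 had homozygous ratios of 0.17 and 0.24, and the DESeq2 interaction called both (adjusted p = 0.00569 and 0.0136).

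In the mitochondrial respiratory chain, 40 of 75 lay above 0 with a median of 0.16 (-0.15 without testis replicate 1 and 1.08 without testis replicate 2). DESeq2 called 1 of the 75 higher and 2 lower (1.8% and 2.57% of all entries). Ndufv2 had 788 and 665 against 182 and 212 CPM (log2 -1.88), Cox5a had 12.6 and 18.4 against 75.6 and 55.5 CPM (log2 2.07), and Ndufc1 had 9.05 and 103 against 8.42 and 7.55 CPM (log2 -2.81). The value of Ndufc1 was -0.17 without testis replicate 2. Chaperonin and heat shock messages had 6 of 24 above 0 and a median of -0.51. DESeq2 called only Hspe1 among them, higher from 2.05 and 4.22 to 12.8 and 29.6 CPM (log2 2.71), while the abundant Tcp1 had 3225 and 3471 against 1569 and 1643 CPM (log2 -1.06, DESeq2 adjusted p = 0.178).

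Germ cell stage markers were checked to see whose RNA the IP held. Spermatogonia markers had 9 of 17 above 0 (median 0.22), spermatocyte markers 16 of 39 (median -0.18), round spermatid markers 14 of 38 (median -0.23) and elongating spermatid markers 12 of 40 (median -0.52). DESeq2 called 0 higher in all 4 lists, and 0, 2, 0 and 3 lower (1.8% and 2.57% of all entries). The summed elongating spermatid level was 11946 and 41095 CPM in testis and 13517 and 12679 CPM in the IPs. The IPs thus lay close to testis replicate 1 and far below testis replicate 2, and the median was -1.20 without the first and 0.85 without the second. For round spermatid markers it was -0.95 and 1.11.

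The elongating spermatid markers called lower were highest in testis replicate 2. Their ratios stayed below 0 without testis replicate 2, unlike the median of their list (0.85). Tnp1, a transition protein of condensing chromatin, had 1209 and 7143 against 810.5 and 712 CPM (log2 -2.46, -0.66 without testis replicate 2). Akap4, of the sperm tail sheath, had 892 and 3042 against 439 and 345 CPM (log2 -2.33, -1.18 without it), and Odf2, of the outer dense fibres, had 4227 and 10370 against 1845 and 1670 CPM (log2 -2.05, -1.26 without it). The IPs lay below both testis libraries in each. The spermatocyte markers called lower were Meig1 and Syce3, a synaptonemal complex protein that had 94.6 and 174 against 41.6 and 33.9 CPM (log2 -1.83). Clgn, a testis chaperone, had 3230 and 3615 against 1408 and 1715 CPM (log2 -1.13), was not called in heterozygotes and had a ratio of 0.91 in homozygotes (DESeq2 interaction adjusted p = 0.0225).

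Markers of somatic cells had medians of -0.33 over 23 Sertoli genes, -0.24 over 15 Leydig genes and -0.06 over 30 peritubular, vascular, immune and blood genes. DESeq2 called 0 higher and 2, 1 and 2 lower (1.8% and 2.57% of all entries). Kitl, the Sertoli ligand of KIT, had 168 and 63.4 against 24.5 and 31.9 CPM (log2 -2.04, -1.25 without testis replicate 1). Prlr, the prolactin receptor, had 143 and 66.0 against 25.5 and 30.7 CPM (log2 -1.89), Actg2, a smooth muscle actin, 180.1 and 344 against 72.3 and 61.5 CPM (log2 -1.97), and Aif1, of macrophages and also of spermatids, 534 and 1778 against 280.0 and 323 CPM (log2 -1.94, -0.82 without testis replicate 2). Of 15 epididymis markers, 4 passed the filter on low counts, with a summed level of 33.3 and 88.4 CPM in testis and 116 and 139.8 CPM in the IPs; their part in the results was not tested.

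Testis replicate 1 also set several of the largest DESeq2 falls. Mageb18 had 419 CPM there and 10.7, 9.27 and 8.32 CPM in the other 3 libraries, and its log2 ratio of -4.61 became -0.36 without it. For Zbtb20 the value went from -3.12 to -0.14, for Tox from -3.46 to -0.60, for Pcdh9 from -3.21 to -0.99, for Arhgap15 from -4.21 to -2.47 and for Zfp945 from -3.07 to -1.53. Serf1 rested on the other library, with 373 and 5265 against 273 and 358 CPM, and its ratio went from -3.16 to -0.23 without testis replicate 2. Meig1, Tcp10a, Fam162a, Psma4 and Psmc1 stayed between -3.61 and -1.84 without either. In homozygotes the ratios were -4.30 for Mageb18, -3.21 for Zbtb20, -3.16 for Tox and -2.33 for Pcdh9, and edgeR called each. It did not call those of Arhgap15 (-3.49), Zfp945 (-1.14) and Serf1 (0.43).

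Genes of the Zfp series, mostly zinc finger transcription factors, were mostly lower in the IP. Of 316 tested, 80 lay above 0 and the median was -0.65. DESeq2 called 28 lower (8.86%) and 1 higher, against 2.57% and 1.8% of all entries. Both IPs lay below both testis libraries in 157 of the 316, against 23.7% of all entries. The median was -0.40 without testis replicate 1 and -0.68 without testis replicate 2, and -0.13 in homozygotes, where 136 of 311 lay above 0.

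Base composition moved with the ratio across the table. The GC content of the longest annotated transcript, matched for 99.3% of the gene symbols tested, had a Spearman's rho of 0.51 with the log2 ratio over 13305 genes. It was 0.569 for IP 1 over testis 1, 0.264 for IP 2 over testis 2, and 0.296 in homozygotes. Across replicate numbers it was 0.334 for IP 1 over testis 2 and 0.519 for IP 2 over testis 1. The testis libraries themselves differed with GC content (rho -0.314 for testis 1 over testis 2). In 10 bins of GC content the median ratio went from -0.72 (median GC 39.5%) to 1.00 (59.3%). Genes called higher by DESeq2 had a median GC of 56.5%, those called lower 43.7% and all genes 49.2%. Genes share libraries, so these are descriptions.

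**Figure D5:**
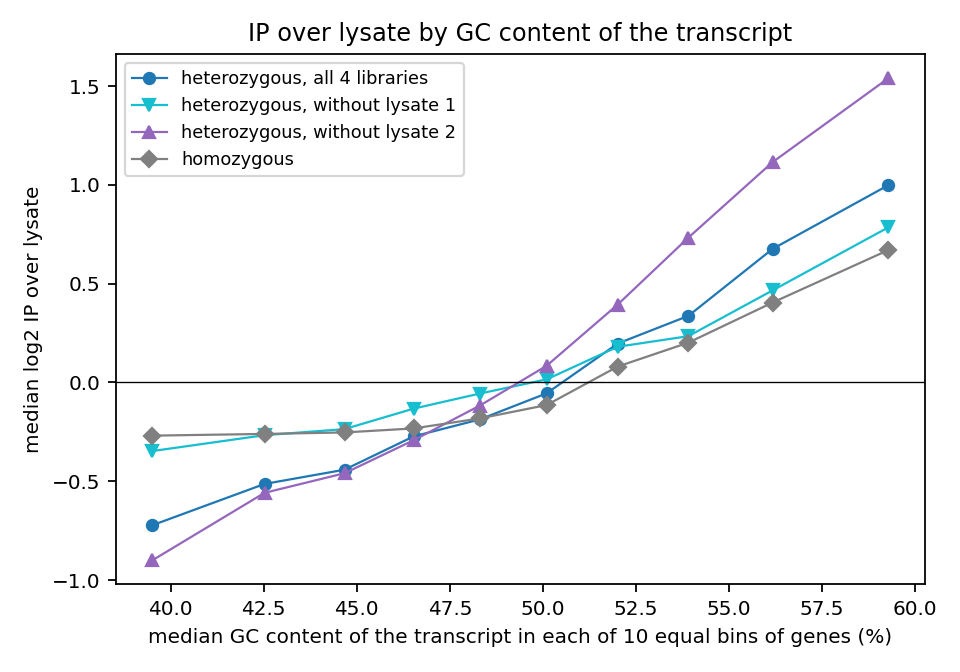
Median log2 ratio of IP to lysate (y axis) in 10 equal bins of genes by the GC content of their longest annotated transcript (x axis, median of the bin in %), for all 4 heterozygous libraries, without each testis lysate in turn, and in homozygous mice. Each line goes up with GC content; with all 4 libraries the medians run from -0.72 to 1.00.

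The Zfp genes had a median GC of 44.5%, below that of all genes. Within the bin of lowest GC their median ratio was -1.37 over 98 genes against -0.68 over 1233 others, and within the next bin -0.91 over 47 against -0.50 over 1283. They lay below the other genes of their bin in each of the 5 lowest bins. In the highest bin 27 Zfp genes had a median of 1.10 against 0.99 for the others. The part of GC content in any of the results above was not tested, and it was not computed for the piRNA precursors, whose sequences were not used here.

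Transposon reads gave little that held across the 4 libraries. By uniquely mapped reads, 1031 of 1268 entries (a family in 1 orientation) were tested, 355 (34.4%) had a ratio above 0, and the median was -0.34. EdgeR called 1 higher and 1 lower (0.097% each), with gene-table scaling. By multiply mapped reads, 748 were tested, 522 (69.8%) lay above 0, and edgeR called 1 higher (0.134%) and 0 lower, with 1 higher and 5 lower (0.668%) at an unadjusted p under 0.05, and DESeq2 with the same scaling called 1 and 1. By these reads both IPs lay above both testis libraries in 26 entries (3.48%) and below in 29 (3.88%). Multiply mapped transposon reads per 100 gene reads were uneven between replicates, at 7.54 and 2.07 in testis and 6.15 and 1.49 in the IPs.

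The entry called lower was antisense L1_Mus1, of an older LINE-1 family. It had 17576 and 4795 CPM in testis and 309 and 419 CPM in the IPs by unique reads, a log2 ratio of -4.94 (SE 1.21, edgeR adjusted p = 0.0232, DESeq2 adjusted p = 5.95e-08). By multiply mapped reads it had 27268 and 9591 against 347 and 40.7 CPM (log2 -6.57, edgeR adjusted p = 0.999, DESeq2 adjusted p = 0.0431). It was below 0 with either testis library, with -3.72 without replicate 1 and -5.59 without replicate 2 by unique reads. Homozygotes had it too, with 12501 and 568 against 126 and 112 CPM (log2 -5.78).

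The entry called higher rested on 1 library. Sense MTB_Mm-int, of a MaLR retrotransposon, had 54.2 and 45.0 CPM in testis, 13306 CPM in IP replicate 1 and 40.2 CPM in IP replicate 2 by unique reads. By multiply mapped reads it had 3553 CPM in IP replicate 1 and at most 1.20 CPM in the other 3 libraries. Its unique log2 ratio of 7.07 became -0.30 without IP replicate 1, and DESeq2 did not call it (adjusted p = 0.346). Both tools called MTB_Mm-int_sense by multiply mapped reads (edgeR adjusted p = 0.0305, DESeq2 adjusted p = 0.00166).

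Similar values, high in 1 of the 4 heterozygous libraries, were seen elsewhere. Sense L1Md_F2, of the young LINE-1 elements, had 2301 and 901 CPM in testis and 15990 and 1839 CPM in the IPs by unique reads. Antisense B2_Mm2 had 12507 and 991 against 506 and 677 CPM, with a log2 ratio of -3.51 that was -0.75 without testis replicate 1. Sense ORR1E had 12294 CPM in testis replicate 1 by multiply mapped reads and between 4.16 and 161 CPM in the other 3 heterozygous libraries. The class medians by unique reads without testis replicate 1 were 0.54 to 1.39 in sense orientation for ERV1, ERVK, ERVL, IAP and L1Md entries, against -0.15 to 0.40 with it. They were lower for sense MaLR (0.34, from -0.43), older LINE-1 (0.16, from -1.07) and SINE MIR entries (-0.29, from -0.71). Homozygous testis replicate 1 was also high for sense ORR1E (9286 against 5.72 CPM in replicate 2) and antisense B2_Mm2 (6758 against 383 CPM). Sense L1Md_F2 had 750 and 732 CPM in the homozygous IPs.

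The ratio of 1 transposon entry differed between the genotypes in edgeR. Antisense MERVL-int, listed as MERVL-int_anti, the internal part of a MERVL retrovirus-like element, had 102 and 34.2 CPM in heterozygous testis and 267 and 240.1 CPM in the IPs by unique reads. In homozygotes it had 89.3 and 134 against 17.9 and 20.1 CPM. The interaction was 4.46 (edgeR adjusted p = 0.0487), and this was 1 of 1059 entries called (0.0944%). Of those 1059 interactions, 756 (71.4%) lay above 0. By multiply mapped reads edgeR called 0 of 754 interactions, although 725 (96.2%) lay above 0. It had 29 higher (3.85%) and 0 lower at an unadjusted p under 0.05. DESeq2 called 3 higher (0.398%) and 0 lower. Multiply mapped reads per 100 gene reads were 6.15 and 1.49 in the heterozygous IPs. They were 7.10 and 1.19 in homozygous testis and 0.670 and 0.635 in the homozygous IPs. Whether single libraries set the share above 0 was not tested. In heterozygotes alone the unique-read ratio of antisense MERVL-int, 1.90, was not called (SE 0.85, edgeR adjusted p = 0.808).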

How the data were processed

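Total RNA of 6-week testis and of RNF17 IPs was made into libraries from 1 ug RNA by not-so-random priming, per the labels' protocols. The authors deposited whole-number counts of reads per gene, piRNA locus strand and transposon entry. STAR, DESeq and mm9 are named in the submitters' processing notes; what each did, its version and how reads were counted is not given in the sources used here. All columns matched a library (0 unmatched), and 0 lines named no gene.

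Counts were tested in R 4.3.3 with edgeR 4.0.16 (TMM scaling, filterByExpr, quasi-likelihood F test) and limma 3.58.1, with Benjamini-Hochberg adjustment over all entries tested and a threshold of 0.05. Transposon counts took the library sizes of the gene table. DESeq2 1.42.0 was an alternative. The interaction used all 8 libraries. Scripts were tested on simulated data. Other alternatives were RLE and total-read scaling, no filter, the replicate number as a block, all 8 libraries in the fit, and leaving out each library.

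Named were Rnf17, up to 3 called members of each list or else its most abundant, the 10 largest called rises and falls among symbols that averaged 3 or more in log2 CPM and whose groups were apart, the 5 largest each way among piRNA loci, and the leading transposons of each class. Since edgeR called 0 genes, the rule was applied to DESeq2 calls, a choice made after seeing results. Some named items are not reported here. The members and lists were chosen with earlier results of these data known. The lists of nuclear long noncoding and structural noncoding RNAs had 0 members in the table. Medians of lists not described above were 0.19 for large chromatin regulators, -0.06 for centrosome and golgin proteins, -0.60 for 4 snoRNA host genes and -0.24 for RIKEN clone genes. Shared sequences were found with blastn 2.17.0 and aligned with MAFFT 7.526 on GENCODE M21 (GRCm38).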

Additional observations from a re-analysis of the deposited data

Results flagged for a closer look

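The difference between genotypes in the ratio of antisense MERVL-int (MERVL-int_anti) by uniquely mapped reads was called by a test of the difference itself, with an interaction of 4.46 on the log2 scale (edgeR adjusted p = 0.0487, 1 of 1059 entries). Both heterozygous IPs lay above both testis libraries and both homozygous IPs lay below theirs. By multiply mapped reads the interaction was 4.07 (edgeR adjusted p = 0.439), which was not called.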

How the results depend on the processing

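Genes called higher numbered 0 in edgeR, 245 in DESeq2, 1 with no filter and 3 with all 8 libraries in the fit. Genes called lower numbered 0 in edgeR and 356 in DESeq2. Leaving out 1 library gave 4 to 3732 higher and 7 to 3546 lower. The highest counts came from fits with a lone testis library, whose spread is then taken from the IPs alone, so they add no support. DESeq2 counts of transposons here use its own size factors, so test and scaling change together. By unique reads, 1 transposon entry was higher (DESeq2 27, 0 with TMM on transposons alone, all 8 libraries 0, leave-one-out 0 to 370) and 1 lower (DESeq2 16, 0 with TMM on transposons alone, all 8 libraries 0, leave-one-out 0 to 559). By multiply mapped reads, 1 was higher (0 with TMM on transposons alone, all 8 libraries 0, leave-one-out 0 to 1) and 0 lower (DESeq2 4, leave-one-out 0 to 2). The interaction had 0 genes higher (DESeq2 29, leave-one-out 0 to 34) and 0 lower (DESeq2 216, leave-one-out 0 to 225). By unique reads it had 1 transposon entry higher (DESeq2 21, no filter 3, leave-one-out 0 to 310) and 0 lower (DESeq2 29, leave-one-out 0 to 22). Scaling to total reads moved the median of all entries from -0.04 to 0.32, and that of the sense piRNA loci from 0.86 to 1.20. Single values that turned were Ddx4 (0.17, total reads), unique MTB_Mm-int_sense (-0.30 without IP replicate 1, up to 8.07 without another) and multiply mapped ORR1E_sense (-10.53 to 2.36, the latter without testis replicate 1); the cause was not tested. List medians that turned when a testis library was left out were those of the respiratory chain (-0.15 without replicate 1), proteasome (-0.24 without replicate 1), peritubular and immune markers (0.31 and 0.16), and, without replicate 2, round (1.11) and elongating spermatid (0.85), ribosomal (0.36), Leydig (0.05), RIKEN (0.13) and chromatoid body lists (-0.27). Without an IP library, those of the chromatoid body (-0.12), proteasome (-0.14), peritubular (0.04) and centrosome lists (0.09) turned. Of the alternatives for single named entries, 413 kept direction and call, 211 gained a call, 12 lost one and 3 turned.

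The replicate block gave 128 genes higher and 66 lower, of which 105 and 60 were also DESeq2 calls, with 8 sense piRNA loci among the higher, and 0 transposon entries higher or lower by unique reads and 0 higher by multiply mapped reads. No label pairs an IP with a testis library, and deviations of same-numbered libraries had r = 0.0426, so the number was not taken to pair them; whether an IP and a testis library share an animal is not known.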
